A study of Mus musculus with 9 samples.

Results

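The genes described here are 36 genes of the DNA damage response and DNA repair, named by a fixed list of symbols with no threshold on a measured value. All 36 were found among the 22631 genes of the deposited table that compares Mutant with Control, and among the 27775 genes of a second deposited table that compares arms named PT and PUT. By their known roles, 13 act in homologous recombination, 9 in the Fanconi anaemia pathway, 4 in end joining, 7 in the damage checkpoint, 1 in mismatch repair and 2 in single-strand break repair.

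The series measured RNA of satellite cells, which are muscle stem cells, taken from hindlimb muscles of mice aged 9 weeks. Its 9 libraries form 3 groups of 3. Control mice received oil. Mutant mice, which lack Uhrf1 in satellite cells, received tamoxifen, the drug that starts Cre recombination, on 5 days, each dose being 150 µl at 20 mg/ml. Cre Control mice also received tamoxifen. No value labelled Cre Control was used here, but whether their libraries are in the PT and PUT arms is not given. Control and Mutant cells were grown in culture for 3 days before RNA was taken. Oil against tamoxifen runs along the same split as Uhrf1 presence against loss, so the effects of drug, Cre activity and Uhrf1 loss cannot be told apart. The labels name no promoter that drives Cre. They do not tell whether each library of a group is a different mouse, so the spread behind the p-values is that of libraries and may be technical. The series title puts the question as what Uhrf1 does in the proliferation and differentiation of satellite cells.

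UHRF1 binds half-methylated DNA behind the replication fork and helps to restore its methylation. Homologous recombination repairs double-strand breaks by copying the sister chromatid, the Fanconi anaemia pathway removes crosslinks between DNA strands at stalled forks, and end joining ligates broken ends directly. Checkpoint kinases sense single-stranded or broken DNA and hold the cell cycle. Many recombination, Fanconi and checkpoint genes are transcribed mainly in cycling cells, from promoters bound by E2F factors, whereas the end joining machinery works throughout the cycle.

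The gene values used here are the authors' comparisons, which give no value per library. Their table holds the mean level of Control and of Mutant in TPM, a unit scaled for transcript length and library depth, and a test with a standard error (SE). The log2 change given with an SE below is the test estimate, the deposited statistic times the deposited SE, negative where Mutant was lower. A gene was called at an adjusted p below 0.05 in the authors' test. In the authors' deposited table, Uhrf1 itself stood at 118 TPM in Control and 20.4 TPM in Mutant, a test estimate of -3.12 (SE 0.60, adjusted p = 4.01e-06). In the PT and PUT table its log2 fold change was -4.00 (SE 0.27). The labels tie those arms to no group, so their directions are given as with or against Uhrf1. Both tables may rest partly on the same libraries, and their values are therefore only set side by side.

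One library stood apart. Counts of repeat families, the only values per library used here, put the IAPEz-int retroelement at 0.501% and 0.675% of repeat counts in Control 1 and Control 2, but at 13.1% in Control 3, within the 9.29% to 16.3% of the 3 Mutant libraries. Each library held 1794698 to 2245124 repeat counts in all. The authors' deposited repeat comparison was recovered within 0.001 (log2) for 1093 of 1093 subfamilies when the library labelled Control 3 was left out, and for 15 of 1093 with all 6. The Control gene means behave as means of 3 values: multiplied by 3, 99.9% of them for genes at 10 to 100 TPM were whole at the 5th decimal (within 0.02 of its last digit), against 33.9% multiplied by 1 or by 2. The labels list 3 Control libraries, and a mean of 3 would include that one, but gene values without it could not be computed. Which libraries the authors' gene test used is not given, so the means and the test may rest on different libraries. In the authors' deposited table, satellite cell and myoblast markers summed to 3306 TPM in Control and 2982 TPM in Mutant, with Pax7, which marks satellite cells, at 23.1 and 29.6 TPM. The largest single difference in TPM was that of Myog, a gene of differentiating myoblasts, at 588.7 and 290.6 TPM and not called (-1.03, SE 0.54, adjusted p = 0.219). Called changes partly offset each other in the sums. Myod1 (1018.1 and 913.9 TPM) and Itga7 (355.4 and 305.2 TPM) were lower in Mutant, and Des (762.5 and 892.2 TPM) was higher.

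Of the 36 repair genes listed in the authors' deposited table, 19 were lower in Mutant and 0 higher, while 17 did not pass the test. Over all 22631 genes 17.1% were called, 8.11% lower and 9.02% higher. Over the 12412 with a coding transcript in the annotation and a mean of at least 1 TPM, 14.5% were lower and 15.5% higher. The median test estimate of the 36 was -0.35 on the log2 scale, against 0.01 over all genes, and 32 of the 36 estimates were negative. By the deposited log2 ratio of mean TPM the median of the 36 was smaller, -0.25. Chek2 was negative by the test (-0.18) but had a TPM ratio of 0.09. The falls were moderate: from 17.2% for Brca1 to 38.5% for Blm by the test estimate. At an unadjusted p below 0.05, 6 of the 17 uncalled genes also passed, 5 of them with negative estimates (Palb2, Xrcc2, Fancc, Atm and Atrip) and Prkdc with a positive one. The uncalled genes had a median SE of 0.13, the called ones 0.10. These genes were well above the level of a typical gene, from 5.96 TPM for Prkdc to 100.3 TPM for Topbp1 in Control, with a median of 20.9 TPM against 2.71 TPM for all genes. Together they made up 981.6 TPM in Control and 797 TPM in Mutant.

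**Figure D1:**
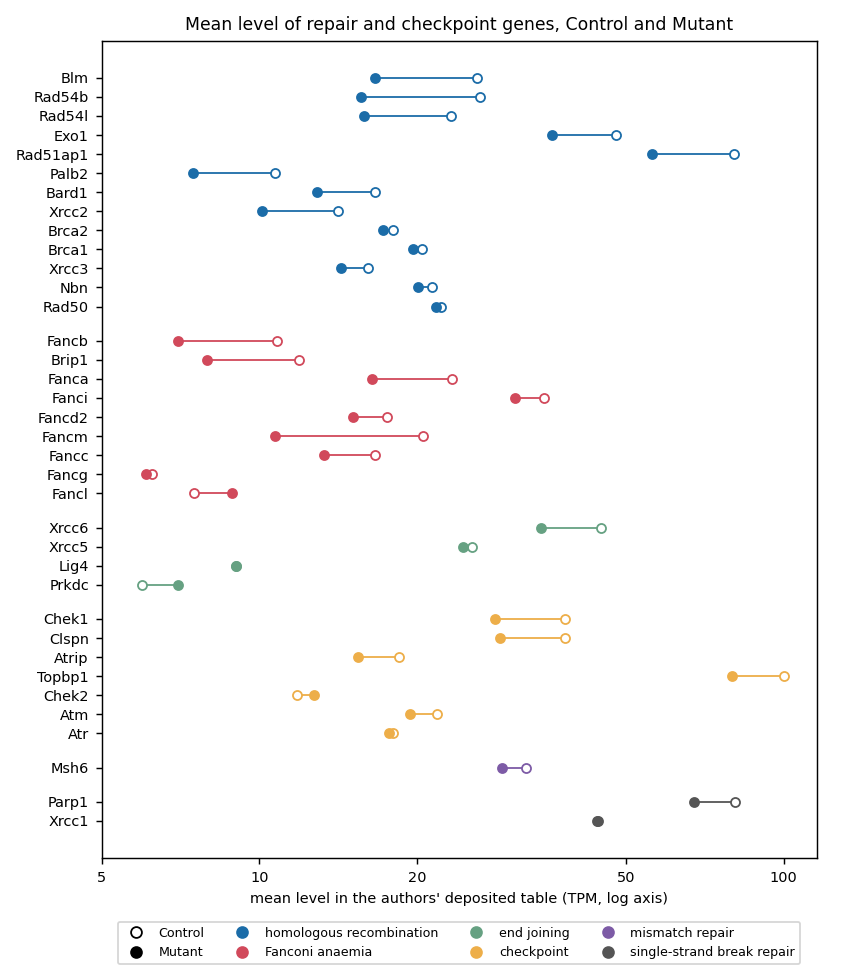
Mean level of the 36 repair and checkpoint genes in Control (open circles) and Mutant (filled circles), in TPM on a log axis, by role; each point is the authors' mean, with no error per point. Most open circles lie to the right of the filled ones, and Prkdc, Fancl and Chek2 lie the other way.

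The largest falls, of Blm and Rad54b, were in homologous recombination. In the authors' deposited table, 8 of its 13 genes fell and 0 rose, all 13 estimates were negative, and the median was -0.38. The summed level went from 343.4 TPM in Control to 263.9 TPM in Mutant. Blm, the helicase that dissolves joint molecules and restrains crossing over, led the list. In the authors' deposited table Blm (ENSMUSG00000030528.12, chr7:80454733-80535119, GRCm38, minus strand) had 26.0 TPM in Control and 16.6 TPM in Mutant, a change of -0.70 (SE 0.10, adjusted p = 3.41e-10).

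RNA of the motor proteins that help the recombinase filament search for and invade the sister strand fell with that of Blm. In the authors' deposited table Rad54b went from 26.4 to 15.6 TPM, a change of -0.64 (SE 0.14), and Rad54l from 23.2 to 15.8 TPM, a change of -0.60 (SE 0.11). Rad54b shares 2068 exon bases with Fsbp on the same strand, so its reads may be split or joined with that gene. Rad51ap1, a partner of the recombinase, went from 80.3 to 56.1 TPM (-0.46, SE 0.10). Exo1, the exonuclease that widens resected ends and also serves mismatch repair, went from 47.9 to 36.2 TPM (-0.53, SE 0.11).

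The breast cancer genes and the genes of their partners had smaller estimates in the authors' deposited table. Brca1 and Bard1 encode partners in one ubiquitin ligase that promotes resection. Brca1 had 20.4 TPM in Control and 19.6 TPM in Mutant, with a test estimate of -0.27 (SE 0.09, adjusted p = 0.0131), and Bard1 had 16.6 and 12.9 TPM (-0.38, SE 0.10). Brca2, which loads the recombinase, had 18.0 and 17.2 TPM (-0.32, SE 0.11, adjusted p = 0.0301). For Brca1 and Brca2 the log2 ratios of the deposited TPM were only -0.06 and -0.07, so their falls rest on the test and hardly show in the mean levels. Palb2, which bridges the products of both, did not pass the test, at 10.7 and 7.47 TPM (-0.44, SE 0.17, adjusted p = 0.0583).

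The other 4 recombination genes were not called in the authors' deposited table. Xrcc2 and Xrcc3, paralogs of the recombinase, had estimates of -0.35 (SE 0.15) and -0.11 (SE 0.16). Nbn and Rad50, of the complex that first binds broken ends, had -0.11 (SE 0.11) and -0.08 (SE 0.09), with intervals of -0.33 to 0.10 and of -0.26 to 0.11 (95%, from the SE). The interval of Nbn holds the -0.27 of Brca1 and the -0.32 of Brca2, both called lower. That of Rad50 ends just above the -0.27. No test compared these genes with each other.

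By the authors' deposited table, 6 of the 9 Fanconi anaemia genes fell and 0 rose, with a median of -0.39 and a summed level of 149.3 TPM in Control and 116 TPM in Mutant. Fancb, part of the core ubiquitin ligase, went from 10.8 to 7.01 TPM (-0.63, SE 0.15). Brip1, a helicase that works with BRCA1, went from 11.9 to 7.95 TPM (-0.47, SE 0.13), and Fanca, a core subunit, from 23.3 to 16.4 TPM (-0.44, SE 0.10). Fancd2 and Fanci encode the pair of proteins that the core complex ubiquitinates. Both fell by the test in the authors' deposited table, Fanci by 0.44 (SE 0.11) and Fancd2 by 0.39 (SE 0.12) on the log2 scale. Their deposited TPM changed less, from 34.9 to 30.7 for Fanci and from 17.5 to 15.1 for Fancd2, log2 ratios of -0.18 and -0.20. Fancm, the translocase that brings the core complex to DNA, fell by 0.39 (SE 0.10), while its deposited TPM went from 20.5 to 10.7, a log2 ratio of -0.88. The test and the TPM ratio differed by more than 0.2 for 5 of the 36 genes (Brca1, Brca2, Chek2, Fanci and Fancm). Within the core complex Fancc (-0.28, SE 0.14), Fancg (-0.17, SE 0.22) and Fancl, its catalytic ligase subunit (0.07, SE 0.21), did not pass, and the last 2 had the widest errors of the 36.

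Of the 4 end joining genes 1 fell in the authors' deposited table, and the median was -0.04. Xrcc6, a subunit of the Ku heterodimer that caps broken ends, went from 44.9 to 34.4 TPM (-0.36, SE 0.10, adjusted p = 0.00327). Its partner Xrcc5 had 25.4 and 24.5 TPM (-0.06, SE 0.10), and the ligase gene Lig4 had 9.04 and 9.01 TPM (-0.02, SE 0.13). Prkdc, the catalytic subunit of the DNA-dependent protein kinase, had the highest estimate of the 36, 0.22 (SE 0.09, adjusted p = 0.0798), at 5.96 and 7.01 TPM. No test compared the classes with each other.

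**Figure D2:**
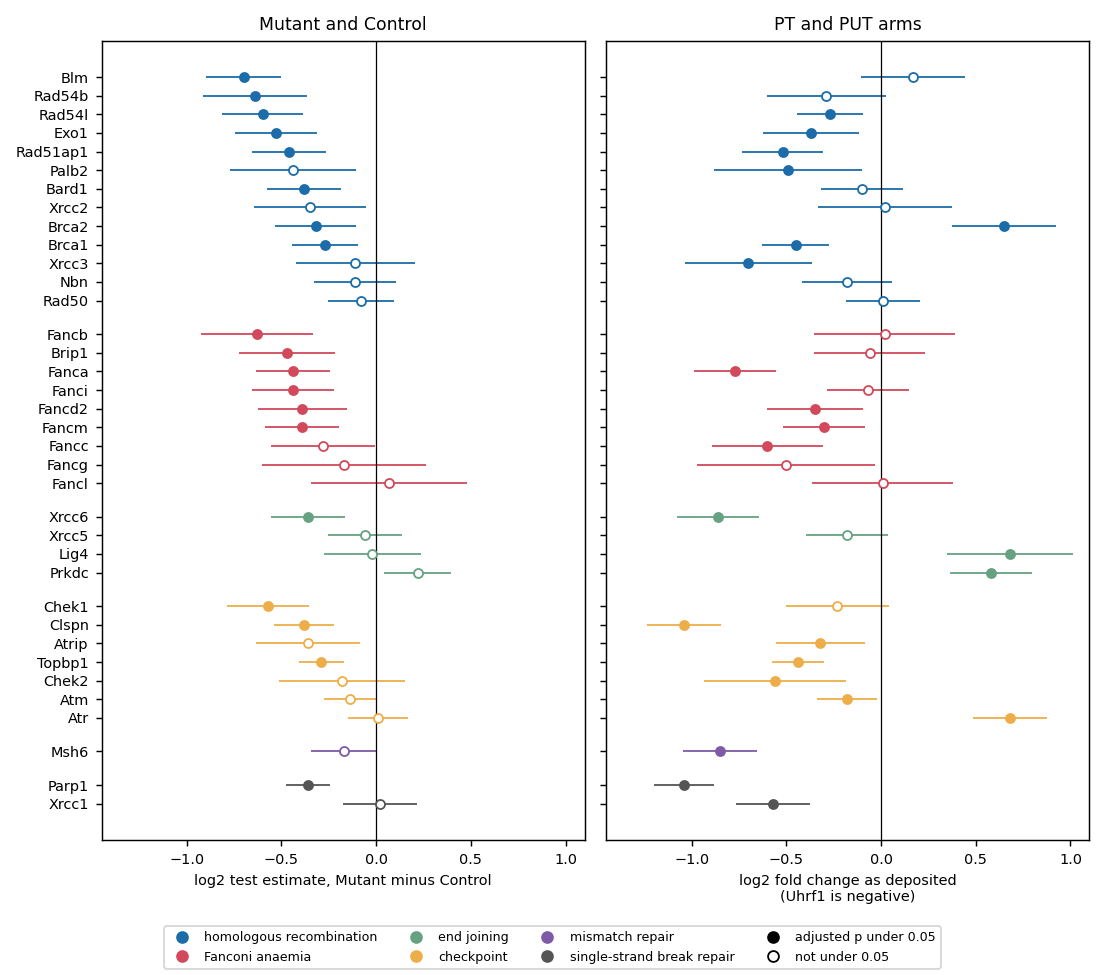
Log2 estimate of each of the 36 genes, by role, in the Mutant and Control table (left) and in the PT and PUT table (right), where Uhrf1 is negative; bars are 95% intervals from the SE and filled points have an adjusted p below 0.05. On the left all 19 filled points are negative, between -0.70 and -0.27. On the right 19 filled points are negative and 4 are positive (Brca2, Lig4, Prkdc and Atr).

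Among checkpoint genes 3 of 7 fell in the authors' deposited table. All 3 were on the branch that answers stalled replication forks, to which most of the 7 belong. Chek1, the effector kinase of that branch, went from 38.2 to 28.1 TPM (-0.57, SE 0.11, adjusted p = 8.53e-06). Clspn, the adaptor through which it is activated, went from 38.3 to 28.8 TPM (-0.38, SE 0.08). Topbp1, which switches on the upstream kinase, went from 100.3 to 79.8 TPM (-0.29, SE 0.06). The upstream kinase gene Atr did not pass, at 18.0 and 17.7 TPM (0.01, SE 0.08), and neither did its partner Atrip (-0.36, SE 0.14, adjusted p = 0.0520). Atrip shares 1147 exon bases with Trex1 on the same strand. Atm and Chek2, the kinases that answer double-strand breaks, had estimates of -0.14 (SE 0.07) and -0.18 (SE 0.17) and did not pass in the authors' deposited table.

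Of the remaining genes, Parp1 is listed in the authors' deposited table at 80.6 TPM in Control and 67.3 TPM in Mutant, a fall by the test (-0.36, SE 0.06, adjusted p = 4.01e-07). Its product binds nicked DNA and marks the site with poly-ADP-ribose. Xrcc1, the scaffold recruited there, had 44.2 and 44.1 TPM (0.02, SE 0.10), and Msh6, a mismatch sensor, had 32.2 and 29.0 TPM (-0.17, SE 0.09, adjusted p = 0.215). Exons of 16 of the 36 genes overlap exons of another gene, those of 9 a protein-coding gene on the opposite strand (Fanca, Fancc, Fancd2, Fanci, Fancl, Msh6, Rad54l, Xrcc3 and Xrcc6). The library kit keeps the strand, but whether counting used it is not given in the sources used, so reads of such partners may be mixed.

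In the deposited PT and PUT table, 19 of the 36 genes moved with Uhrf1, 4 against it and 13 were not called. Of all 27775 genes there, 47.2% were called, 22.1% with Uhrf1 and 25.1% against it. The median of the 36 was -0.29, against 0.14 over all genes, and 27 of the 36 were negative. The largest changes were those of Clspn (-1.04, SE 0.10), Parp1 (-1.04, SE 0.08), Xrcc6 (-0.86, SE 0.11) and Msh6 (-0.85, SE 0.10) in the authors' deposited table. By role, 6 of 13 recombination genes moved with Uhrf1 and 1 against, 4 of 9 Fanconi genes with and 0 against, 1 of 4 end joining genes with and 2 against, and 5 of 7 checkpoint genes with and 1 against.

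The tables called 17.1% and 47.2% of all their genes, so which repair genes were called in both is a list and not a result. Lower in Mutant and with Uhrf1 in the PT and PUT table were Brca1, Rad51ap1, Rad54l, Exo1, Fanca, Fancd2, Fancm, Xrcc6, Clspn, Topbp1 and Parp1. Bard1, Rad54b, Blm, Fancb, Fanci, Brip1 and Chek1 passed in the Mutant table alone, and Palb2, Xrcc3, Fancc, Chek2, Atm, Atrip, Msh6 and Xrcc1 passed in the PT and PUT table alone, with Uhrf1. Blm, the gene that fell most in Mutant, had 0.17 (SE 0.14) in the PT and PUT table as deposited by the authors. Brca2 was called in opposite senses, at -0.32 in Mutant and 0.65 (SE 0.14) in the PT and PUT table. Lig4 (0.68, SE 0.17), Atr (0.68, SE 0.10) and Prkdc (0.58, SE 0.11) moved against Uhrf1 in the authors' deposited table and were not called in Mutant. Xrcc2, Nbn, Rad50, Fancg, Fancl and Xrcc5 passed in neither.

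Base composition moved with the PT and PUT values. The 12677 genes compared had a coding transcript in the annotation and a mean count of at least 10. Across them the log2 fold change of the authors' deposited table fell with GC content (Pearson r -0.40, a description only, since genes share libraries). Its median was 0.69 in the lowest of 10 equal bins of genes by GC and -0.37 in the highest. The 4 repair genes that moved against Uhrf1 had transcripts of low GC: Atr 40.8%, Lig4 42.1%, Brca2 42.4% and Prkdc 43.3%. Among the 18 repair genes of lowest GC 4 moved with and 4 against Uhrf1, with a median of -0.08. Among the 18 of highest GC 15 moved with it and 0 against, with a median of -0.53. In the Mutant and Control table the medians over such bins lay between -0.06 and 0.05, r was 0.09, and 10 and 9 genes of the lower and upper 18 fell.

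Measured from the median of genes of like GC, a step chosen after the data were seen, 33 of the 36 values were negative and 3 positive (Brca2, Lig4 and Prkdc). The test was not run again: of the 23 genes called as deposited, 20 were then negative and 3 positive. Over the 12677 genes, 32.3% were called and negative and 28.2% called and positive as deposited, and 33.8% and 26.8% after centring. Atr then stood at -0.01 and Brca2 at 0.26 in place of the 0.68 and 0.65 of the authors' deposited table. Genes called with Uhrf1 moved by unequal amounts: Clspn stood at -0.99 and Parp1 at -0.82, whereas Xrcc3 went from -0.70 to -0.37, Xrcc1 from -0.57 to -0.20 and Atrip from -0.32 to -0.10. Uncalled genes of low GC went the other way, Chek1 from -0.23 to -0.92 and Fancb from 0.02 to -0.67. Long transcripts also had higher values in that table, with medians of -0.31 in the shortest of 10 length bins and 0.23 in the longest. The part of length in the values of the repair genes was not tested.

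**Figure D3:**
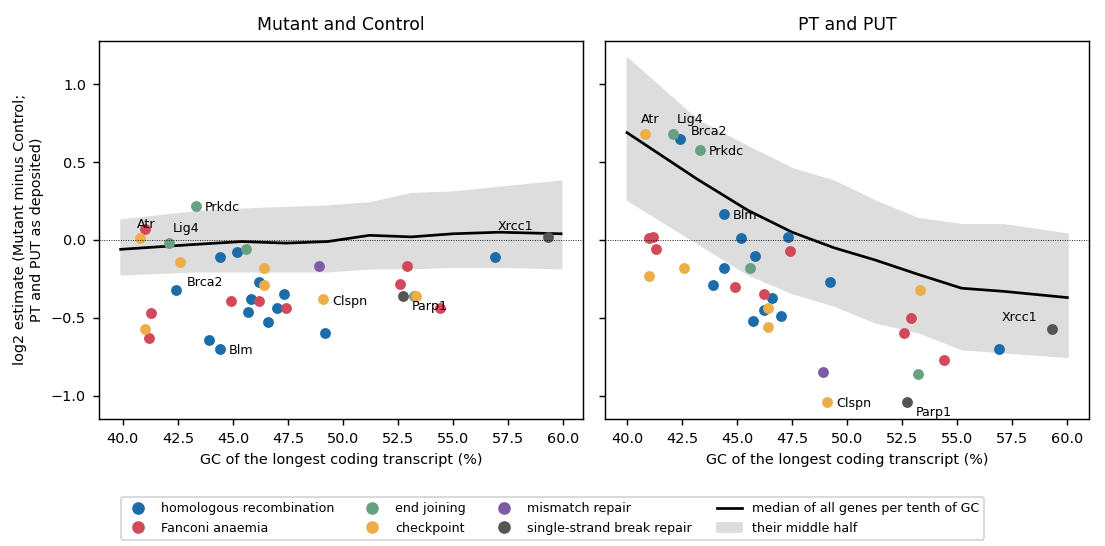
Log2 estimate of the 36 genes (points, coloured by role) against the GC content of the longest coding transcript (%), for the Mutant and Control table (left) and the PT and PUT table (right). The line is the median of genes in each of 10 GC bins and the band their middle 50%. Genes in the bins had a coding transcript and a mean of at least 1 TPM (left) or a mean count of at least 10 (right). The line is nearly flat on the left and runs from 0.69 down to -0.37 on the right, where Brca2, Lig4, Prkdc and Atr sit at low GC.

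Other repair genes, 127 of them measured, included 36 that fell (28.3%) and 7 that rose (5.51%) in the authors' deposited table, with a median of -0.20. Of these, 97 share a role with the 36, and there 34 fell, 1 rose (Polm) and the median was -0.23. The other 30 belong to nucleotide excision repair and translesion synthesis, which none of the 36 represents. Of 126 other repair genes in the PT and PUT table, 62 (49.2%) moved with Uhrf1 and 19 (15.1%) against. Among the 96 of them that share a role with the 36, 50 (52.1%) moved with and 11 (11.5%) against. The shares of the 36 were 52.8% and 11.1%, near those of the other repair genes, and of all genes there 22.1% and 25.1%. Among other recombination genes 8 of 33 fell and 0 rose, led by the nuclease-helicase gene Dna2 (12.3 TPM in Control and 6.84 TPM in Mutant), Fignl1 (-0.65, SE 0.08) and Eme1, a subunit of a junction-cutting nuclease (-0.60, SE 0.15). Of other Fanconi genes 2 of 10 fell: Usp1, which removes ubiquitin from the product of Fancd2 (-0.49, SE 0.07), and Rfwd3 (-0.23, SE 0.06). Of other mismatch repair genes Pms2 fell (-0.32, SE 0.12), 1 of 6, and 0 rose.

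The authors' deposited table had 10 of 16 further checkpoint genes lower and 0 higher, led by the histone gene H2afx (-0.66, SE 0.07), Rad1 of the clamp loaded at stalled forks (-0.63, SE 0.14) and the phosphatase gene Cdc25a (-0.55, SE 0.09). In base excision and single-strand break repair 10 of 22 fell and 0 rose, led by the uracil glycosylase gene Ung (-0.85, SE 0.15), Tdg (-0.51, SE 0.06) and Tdp1 (-0.51, SE 0.11). Of other end joining genes 3 of 10 fell: Polq, the polymerase of the microhomology route (-0.76, SE 0.10), Rif1 (-0.57, SE 0.07) and Paxip1 (-0.44, SE 0.08). The polymerase gene Polm rose (0.90, SE 0.30).

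Apart from Polm, the other repair genes that rose in the authors' deposited table belonged to nucleotide excision repair, which acts on bulky lesions, or to translesion synthesis. In nucleotide excision repair 3 of 20 rose, the nuclease genes Ercc5 (0.85, SE 0.10) and Ercc1 (0.26, SE 0.09) and the damage sensor gene Ddb1 (0.15, SE 0.05), and Ercc8 fell (-0.47, SE 0.16). In translesion synthesis, which copies past damage, 3 of 10 rose, the polymerase genes Polk (0.80, SE 0.10) and Rev1 (0.37, SE 0.10) and Ube2b (0.24, SE 0.08), and Rad18 fell (-0.31, SE 0.10). These are 15.0% and 30.0% of the 2 lists, against 9.02% higher over all genes. Over the 12412 genes with a coding transcript and a mean of at least 1 TPM it was 15.5%, so the nucleotide excision repair share lay near that of genes in general. The difference between these lists and the others was not tested.

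Genes of the cell cycle fell beside the repair genes. By the authors' deposited table, 26 of 32 replication origin and fork genes fell and 0 rose (median -0.40; summed 2451 TPM in Control and 1867 TPM in Mutant), led by Mcm5, a subunit of the replicative helicase (-0.57, SE 0.08). Of 22 mitosis genes 17 fell and 0 rose (median -0.35), led by the mitotic kinase gene Cdk1 (-0.61, SE 0.07). Of 19 targets of p53, the transcription factor activated by DNA damage, 16 rose and 0 fell (median 0.71), led by Trp53inp1 (1.94, SE 0.18), Fas (1.90, SE 0.38) and Pmaip1 (1.62, SE 0.12). Between PT and PUT, 24 of 32 replication genes moved with Uhrf1 and 2 against, 12 and 5 of 22 mitosis genes, and 4 and 8 of 19 p53 targets. In bulk RNA fewer cells in cycle and less RNA per cell cannot be told apart, and the part of cell cycle genes in the values of the repair genes was not tested.

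**Figure D4:**
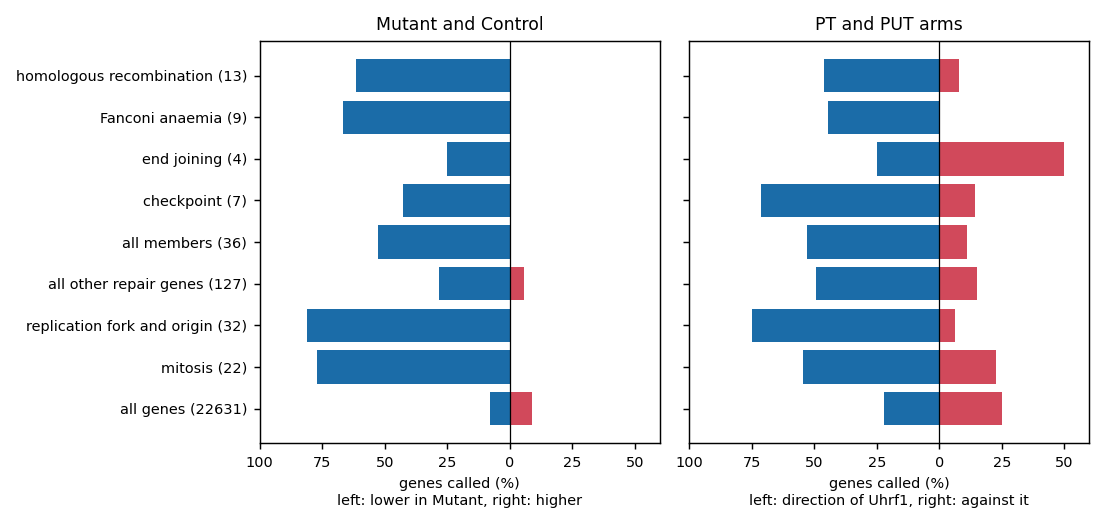
Share of genes (%) called in the Mutant and Control table (left; lower to the left, higher to the right) and in the PT and PUT table (right; with Uhrf1 to the left, against it to the right), for 4 roles of the 36 genes, all 36, other repair genes, replication, mitosis and all genes. Numbers in brackets are genes in the Mutant and Control table; the PT and PUT table has 126 other repair genes and 27775 genes in all. On the left, 52.8% of the 36 were lower against 8.11% of all genes.

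Markers of other cell types were measured in the same table. Macrophage and leukocyte markers, 8 of 10 in the table and none at 0, summed in the authors' deposited table to 34.3 TPM in Control and 115.3 TPM in Mutant, and Laptm5 (1.75, SE 0.62) and Cd68 (0.98, SE 0.34) rose. Laptm5 made most of that sum, at 25.1 and 84.8 TPM, followed by Fcer1g, at 3.22 and 19.3 TPM and not called. Ptprc, the pan-leukocyte marker, had 0.381 and 0.303 TPM, and Itgam, Csf1r and Lyz2 lay below 0.7 TPM in both groups. Endothelial markers summed to 29.2 and 24.2 TPM, with 2 of 10 lower (Cdh5 and Pecam1) and 1 higher (Tek), fibroblast markers to 299.6 and 292.5 TPM, with 1 of 10 lower (Col1a2), and Schwann cell markers to 4.59 and 6.60 TPM, with 1 of 6 higher (Mbp). Of 11 satellite cell and myoblast markers 4 fell by the test, Vcam1 most (-0.38, SE 0.07), and 3 rose, Megf10 most (0.45, SE 0.07). The part of these cell types in the values of the repair genes was not tested.

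Promoters of these genes were searched for the letters of E2F sites, since many of the 36 fell together with replication genes. RefSeq windows of GRCm38.p6, from 250 bases before to 50 bases after the start site, were matched by symbol for 29 of the 36. The letters TTTCCCGC, TTTGGCGC or TTTCGCGC were sought on either strand, and a gene with several windows counted once if any held a match. A match lay in 8 of these 29 genes (27.6%) and in 451 of the 14067 genes with a window in the Mutant and Control table (3.21%). Among other repair genes with a window the count was 8 of 101 (7.92%), and among replication genes 13 of 25 (52.0%). The matches of 7 of the 8 genes are shown 5′ to 3′ on the strand of the gene, with 20 bases on each side and the E2F letters in capitals.
Bard1 (chr1:71103154-71103201, minus strand): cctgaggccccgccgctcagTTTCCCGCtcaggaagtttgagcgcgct
Brca2 (chr5:150522433-150522480, plus strand): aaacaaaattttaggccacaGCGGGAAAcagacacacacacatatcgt
Chek2 (chr5:110839811-110839858, plus strand): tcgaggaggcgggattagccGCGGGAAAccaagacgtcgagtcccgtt
Fancg (chr4:43010326-43010373, minus strand): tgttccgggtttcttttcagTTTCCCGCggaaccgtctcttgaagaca
Msh6 (chr17:87975045-87975092, plus strand): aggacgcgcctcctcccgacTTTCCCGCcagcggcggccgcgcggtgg
Topbp1 (chr9:103305178-103305225, plus strand): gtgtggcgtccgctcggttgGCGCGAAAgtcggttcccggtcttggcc
Xrcc6 (chr15:82016303-82016350, plus strand): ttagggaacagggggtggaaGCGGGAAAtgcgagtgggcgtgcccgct

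The eighth match is in the window of Clspn, which fell in Mutant and whose change in the PT and PUT table was the largest, beside Parp1. Capitals mark its E2F letters near the 3′ end and CCAAT letters on either strand.
Clspn (chr4:126556730-126557029, plus strand): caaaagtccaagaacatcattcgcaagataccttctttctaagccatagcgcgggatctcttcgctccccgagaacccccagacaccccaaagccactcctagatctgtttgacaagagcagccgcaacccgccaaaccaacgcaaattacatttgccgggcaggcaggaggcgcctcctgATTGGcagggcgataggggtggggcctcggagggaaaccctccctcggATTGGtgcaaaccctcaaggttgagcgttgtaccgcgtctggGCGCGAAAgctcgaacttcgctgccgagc

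The window of Blm, the gene with the largest fall in Mutant, held none of the E2F letters, and capitals mark its CCAAT letters on either strand.
Blm (chr7:80534949-80535248, minus strand): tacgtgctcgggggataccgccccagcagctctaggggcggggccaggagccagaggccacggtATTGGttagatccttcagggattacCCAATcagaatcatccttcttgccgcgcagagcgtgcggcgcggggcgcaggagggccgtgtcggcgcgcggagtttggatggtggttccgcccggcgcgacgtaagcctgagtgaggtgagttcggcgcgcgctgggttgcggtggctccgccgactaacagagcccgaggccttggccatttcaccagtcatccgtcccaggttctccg

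The values of genes with and without the E2F letters, from the authors' deposited table, overlapped. Of the 8 with a match 5 fell in Mutant (Bard1, Brca2, Clspn, Topbp1 and Xrcc6), with a median of -0.30, and of the 21 with a window and no match 11 fell, with a median of -0.36. CCAAT, on either strand, lay in a window of 19 of the 29 genes (65.5%) and of 42.3% of genes with a window in the Mutant and Control table. Of those 19 genes 10 fell in Mutant, and 15 moved with and 0 against Uhrf1 in the PT and PUT table. Of the 10 without CCAAT 6 fell in Mutant, and 2 moved with and 3 against Uhrf1. The genes with CCAAT had a median transcript GC of 47.0% and those without 44.1%, and the part of GC in that split was not tested. The letters TTTGAA of the CHR element, a site in promoters of late cell cycle genes, lay in 1 of 29 windows (3.45%) against 16.1% of windows of genes in the table. A match of letters describes the window only and shows no binding.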

How the data were processed

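The submitters' processing notes name DESeq2, featureCounts 2.0.1, STAR 2.7.6a and Trim Galore 0.6.6 for the Control and Mutant libraries, and the builds GRCm38 and mm10, with no role or order. Ribosomal RNA was depleted and the libraries were strand-specific, per the labels' protocols. For genes the authors deposited comparisons only. The Mutant and Control table holds mean TPM of each group as deposited by the authors, and its deposited log2 fold change is the log2 ratio of mean TPM plus 1, within 4.79e-08, which understates changes of low genes. Its SE belongs to the test estimate (statistic times SE). The authors deposited each test statistic, a score, with its p-value and adjusted p-value. In the PT and PUT table the authors deposited mean signal (normalised counts averaged over libraries), log2 fold changes, SE and p-values, per the file headers DESeq2 output. Repeat counts per library were deposited by the authors as whole numbers. They were refitted with DESeq2 1.42.0, with all 6 libraries and without each in turn.

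Calls used an adjusted p below 0.05 over all genes of a table, and lists were described by counts and medians. Values of all 36 genes are given. Of each other repair list up to 3 called genes of largest estimate per direction are named. Of the cell cycle, p53 and marker lists up to 3 in all are named by the same rank. Myog and further macrophage and leukocyte markers, not called, are named beside them to show what the sums rest on. Myod1, Itga7 and Des, which were called, are named for the same reason. Promoter windows came from RefSeq (GRCm38.p6), and gene positions, transcript GC and length from GENCODE (GRCm38), matched for all 36. The genes, lists and tests were chosen with earlier results of these data known. Thresholds of 0.01 and 0.1, a recomputed adjustment, minimum levels and sizes, and centring were tried. The adjustment of p-values and the search for promoter letters were tested on simulated data, and the centring was not.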

Additional observations from a re-analysis of the deposited data

How the results depend on the processing

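The count of 19 genes lower in Mutant lay between 17 and 21 over its alternatives. At a threshold of 0.1 on the adjusted p, 1 gene (Prkdc) was higher in Mutant, and at each other setting tried 0 were. The count moving with Uhrf1 in the PT and PUT table lay between 13 (threshold 0.01) and 20 (genes called as deposited, with the sign read after GC centring), and the count against it was 3 or 4. The median of the 36 in that table went from -0.29 to -0.43 when centred on all genes and to -0.44 when centred on genes of like GC, and Atr went from 0.68 to -0.01 under the GC centring, which was chosen after the data were seen. Counting Brca2 and Palb2 with the Fanconi genes and Exo1 with mismatch repair gave 6 of 10 recombination, 7 of 11 Fanconi and 1 of 2 mismatch repair genes lower.

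No paired analysis was possible because the gene tables hold no values per library. Leaving out a library, the one labelled Control 3 included, was not run for genes for the same reason, and the number of reads behind a gene value is unknown.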
